A study of Homo sapiens with 6 samples.

Results

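The genes described here are the sarco/endoplasmic reticulum calcium pumps (SERCA: ATP2A1, ATP2A2 and ATP2A3), 3 micropeptides that inhibit them (myoregulin, MRLN; phospholamban, PLN; sarcolipin, SLN) and the inositol trisphosphate (IP3) receptors through which calcium leaves the endoplasmic reticulum (ER: ITPR1, ITPR2 and ITPR3). These 9 genes have 29 of the 54613 non-control probe sets on the array, counting every probe set annotated to exactly 1 gene. MRLN was chosen by its measured difference between the lines on these same arrays, so its values are a description and no test is given for it. The other 8 genes, with 28 probe sets, were added by function with earlier results of these data known.

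Transcripts were profiled on 6 HG-U133 Plus arrays (Affymetrix), 3 for each of 2 stably transfected derivatives of SKOV3.ip1, a peritoneally passaged human ovarian carcinoma line. Both carry a vector for PEA-15, an adaptor that binds ERK and, through its death effector domain, FADD. In S116A the encoded Ser116 is an alanine, which cannot be phosphorylated, and in S116D it is an aspartic acid, which mimics phosphate. The labels differ on the S116D form, since its sample characteristics add Ser104 and its treatment text names Ser16. Neither the promoter of the vector nor whether a line is 1 clone or a pool is given in the sources used here. Nothing in the labels says that the 3 arrays of a line came from separate cultures, so the spread between them, on which each p-value rests, may be technical. Parental cells and cells with an empty vector were not analysed here, and each difference is S116D minus S116A on the log2 scale of the deposited signals.

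SERCA pumps use ATP to move calcium from the cytosol into the ER, and IP3 receptors release it again when phospholipase C makes IP3. ATP2A2 is the pump of most cell types, ATP2A1 that of fast skeletal muscle, and ATP2A3 is found in blood, endothelial and some epithelial cells. MRLN, PLN and SLN each have 1 membrane helix that sits in a groove of the pump and lowers its affinity for calcium. They are known from skeletal muscle (MRLN), heart and slow muscle (PLN) and atrium and skeletal muscle (SLN). In muscle, MRLN is activated by MyoD, which binds E-boxes, and by MEF2.

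Median log2 signals of the 6 arrays ran from 7.862 to 7.893, and arrays correlated at 0.9951 to 0.9979 within a line and 0.9866 to 0.9902 between lines. The first principal component (61.9% of the variance) separated the lines. The second (20.3%) put S116A 1, S116A 2 and S116D 1 in a first set of arrays and S116A 3, S116D 2 and S116D 3 in a second. The sets correspond to no label, and they differed in the log2 ratio of 3′ to 5′ GAPDH control signal (0.726 to 0.7932 against 0.6526 to 0.7083). The same ratio for ACTB did not separate them (2.328 to 2.443 against 2.27 to 2.474). Several genes below moved with the sets, so their values are also given within each set and with the set as a block. That alternative was chosen after seeing the data. The sets were drawn from these same signals, so the block removes the spread that defined it. Its adjusted p-values can therefore be too small, and calls over all probe sets rose from 4672 to 8099 with it. Of 12 markers of ovarian carcinoma epithelium, KRT8 (13.49 in S116A, 13.10 in S116D), KRT18 (13.70, 13.00), EPCAM (13.25, 12.34) and PAX8 (12.77, 12.82) were among the bright ones. MUC16, which encodes CA125, read 6.72 and 6.59, near the lower quartile of all probe sets (6.647), and MSLN, mesothelin, 7.67 and 7.34. By limma 6 of the 12 were called, against 12.2% of all genes. By brightest probe set KRT19 (-2.26), KRT7 (-1.56), EPCAM (-0.91), KRT18 (-0.70) and KRT8 (-0.39) were lower in S116D and FOLR1 (0.72) higher. KRT7 was called on 2 of 4 probe sets, and KRT19 and FOLR1 on 1 of 2 each. When probe sets were combined by their median, KRT19 (-1.2) and KRT7 (-0.27) shrank but stayed called. FOLR1 (0.26) then lost its call (limma adjusted p = 0.16). The part of these epithelial markers in the differences below was not tested.

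MRLN was higher in S116D on its only probe set, 231051_at. It read 7.02, 8.40 and 7.27 on the 3 S116A arrays and 11.72, 11.77 and 12.23 on the 3 S116D arrays. The lines did not overlap: the lowest S116D array lay 3.32 above the highest S116A array, a 9.96-fold gap. The means were 7.56 ± 0.74 and 11.90 ± 0.28 (SD, n = 3 each), a difference of 4.34, or 20.3-fold, which ranked 2 among the rises of all 54613 probe sets. The S116A mean lay at the 43.1 percentile of S116A means and the S116D mean at the 94.9 percentile of S116D means. Without detection calls it cannot be said whether S116A held any MRLN transcript, so the fold is not exact.

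The 3 S116A arrays disagreed on MRLN more than on nearly every other probe set. Their SD exceeded that of 99.95% of probe sets, and S116A 2 read 2.61-fold above S116A 1. Those arrays belong to the same set of arrays, so the set does not separate them. The difference was 4.01 within the first set and 4.73 within the second, and leaving out 1 array at a time it ran from 4.07 (without S116A 1) to 4.76 (without S116A 2).

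The sequence upstream of MRLN is shown because the motifs of its muscle activators are of interest beside its signal in a carcinoma line. It covers the 250 bases before the RefSeq transcript start at chr10:59753456-59753705 on the minus strand of GRCh38.p14, read 5′ to 3′, with E-boxes (CANNTG) and a match to the MEF2 consensus in capitals. Both motifs read the same on either strand and do not overlap here.
MRLN: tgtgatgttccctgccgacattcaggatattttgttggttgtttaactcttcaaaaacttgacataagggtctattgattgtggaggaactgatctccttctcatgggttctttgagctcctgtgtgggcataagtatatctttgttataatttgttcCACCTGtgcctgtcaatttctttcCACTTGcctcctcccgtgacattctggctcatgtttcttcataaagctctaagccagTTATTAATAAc
The window holds 2 E-boxes, CACCTG beginning 92 bases and CACTTG 68 bases before the start. Of 35116 RefSeq windows of the same length, 61.8% hold at least 1 E-box and 28.3% at least 2, so this number is common. The window also holds 1 match to the MEF2 consensus, TTATTAATAA beginning 11 bases before the start, against 2.80% of all windows with at least 1. The other members and the called neighbours of MRLN described below were scanned where a window was available. ATP2A2 held 2 MEF2 matches, and PLN, ATP2A1, ITPR1, ITPR3, CISD1, SLC16A9, RHOBTB1 and ZNF365 held 0. E-boxes numbered 3 for SLC16A9 and 0 for RHOBTB1, the neighbours with the largest rises. A match is a run of letters, not a known site. MyoD itself (MYOD1) read 7.84 ± 0.06 on S116A arrays and 7.88 ± 0.15 on S116D arrays (SD, n = 3 each), and MEF2C 7.57 ± 0.05 and 7.58 ± 0.05, both near the median signal and neither called by limma (adjusted p = 0.85 and 0.92). MEF2C is given by the brightest of its 3 probe sets, and no value of another MEF2 gene is given here. No array measurement bears on binding at this window.

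**Figure D1:**
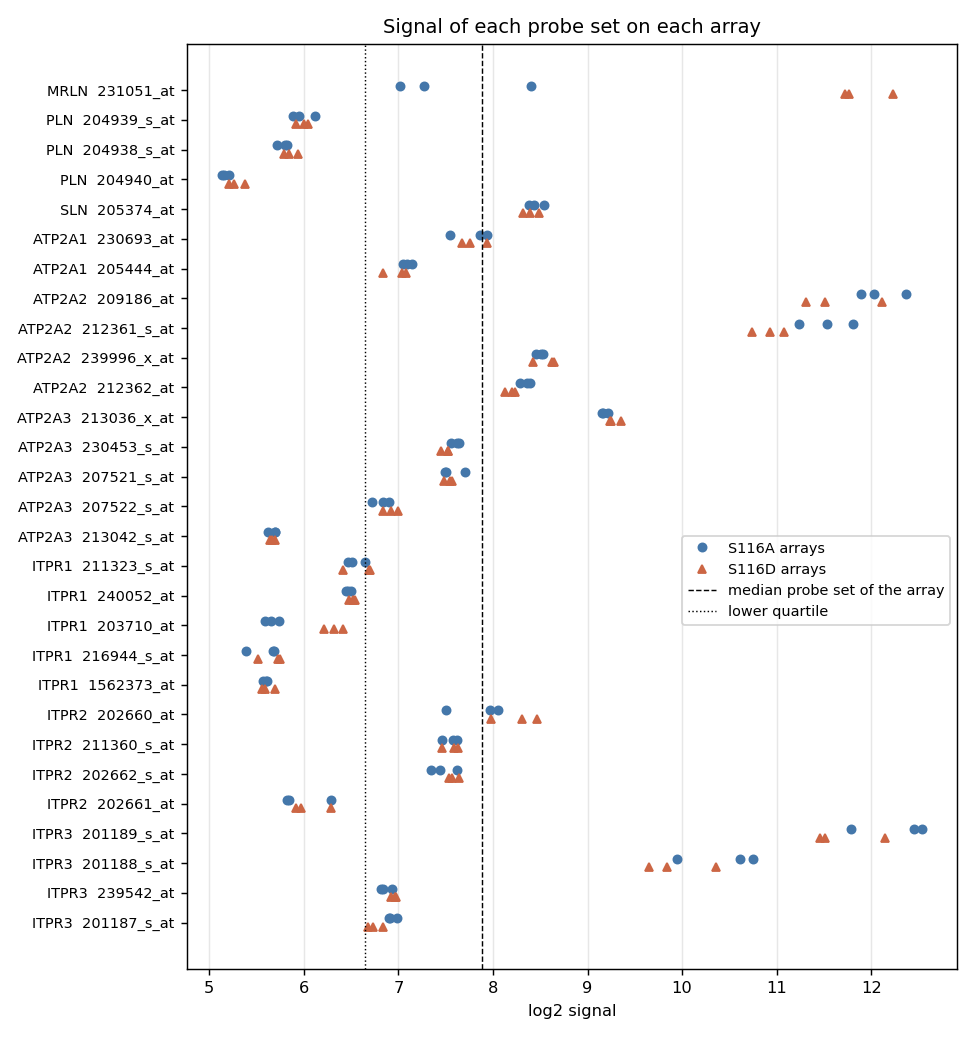
Log2 signal of each of the 29 probe sets (rows) on each S116A array (circles) and S116D array (triangles); vertical lines mark the median and lower quartile of all probe sets. MRLN is the row where the lines lie furthest apart, ATP2A2 and ITPR3 have the brightest probe sets, and the 3 PLN rows lie left of the lower quartile.

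The other micropeptide inhibitors did not share the MRLN pattern. PLN had 3 probe sets, all below the lower quartile of signal. On its brightest, 204939_s_at, it read 5.95, 5.88 and 6.12 in S116A and 5.91, 5.999 and 6.04 in S116D, and the lines overlapped. The 3 PLN differences ran from -0.001 to 0.12 and none was called. On the dimmest, 204940_at, the lines did not overlap (5.136 to 5.209 against 5.212 to 5.38), yet the difference was 0.12 with a 95% interval from -0.01 to 0.24 (limma adjusted p = 0.31). SLN, on its 1 probe set 205374_at, read 8.54, 8.38 and 8.43 in S116A and 8.39, 8.49 and 8.31 in S116D. Its lines overlapped, with a difference of -0.06 and a 95% interval from -0.24 to 0.13. Brightness depends on the probes as well as on the transcript, so these levels give no order between genes.

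Over all 28 probe sets of the 8 other genes, limma called 2 at an adjusted p under 0.05, against 8.55% of all probe sets. The call on ITPR1 was a rise, where 4.36% of all probe sets were called higher, and that on ATP2A2 a fall, where 4.19% were called lower. The lines did not overlap for 7 of 28, 3 higher and 4 lower, against 24.0% of all probe sets. Neither count is read as a result about these genes, since the set was built on this contrast. The median difference was 0.01, against 0.003 over all probe sets, and 22 of the 28 differed by under 0.25, as did 83.9% of all probe sets. In bulk RNA, more cells with a transcript and more transcript per cell cannot be told apart.

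**Figure D2:**
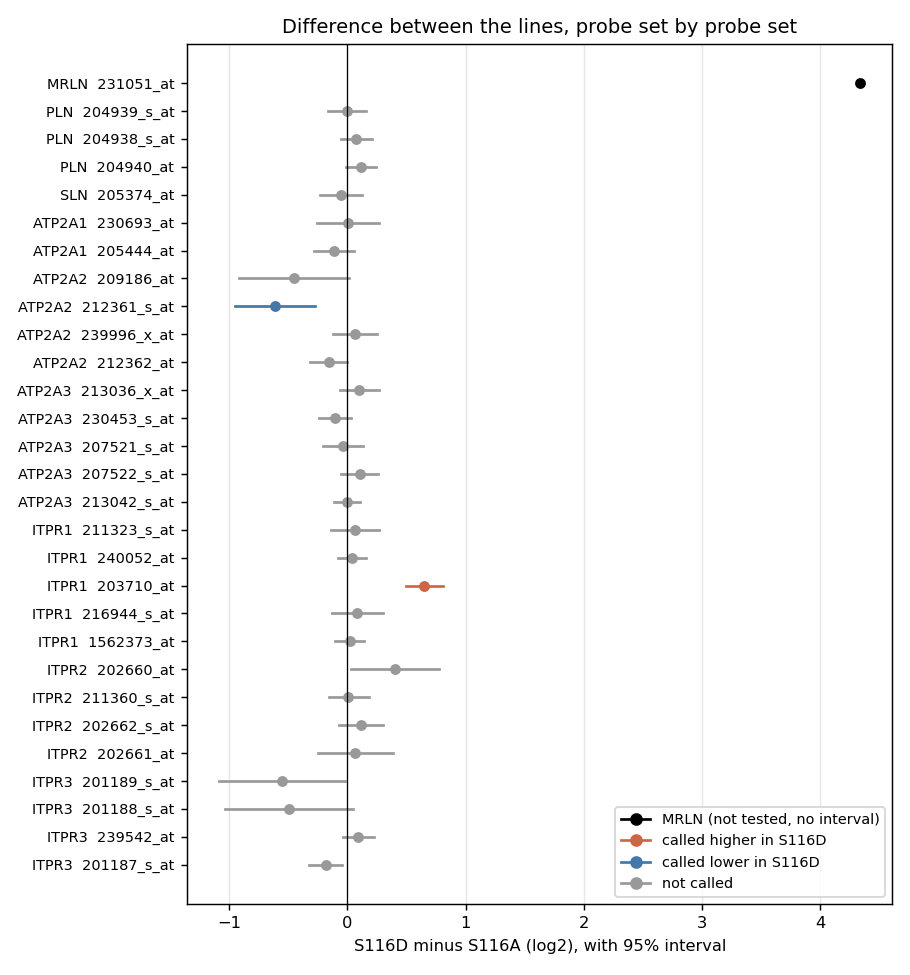
Difference S116D minus S116A in log2 signal for each of the 29 probe sets, with limma's 95% interval for all but MRLN, which was chosen by this difference. MRLN stands at 4.34, the called ITPR1 probe set at 0.65 and the called ATP2A2 probe set at -0.61, and every other point lies between -0.55 and 0.41.

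ATP2A2, the housekeeping pump, was lower in S116D on 1 of its 4 probe sets. On 212361_s_at it read 11.54, 11.81 and 11.24 in S116A and 11.07, 10.93 and 10.74 in S116D. All 3 S116D arrays lay below all S116A arrays, with a difference of -0.61 (95% interval -0.95 to -0.28), a 1.53-fold fall with a limma adjusted p of 0.038. The call was lost without S116A 1, S116A 2, S116D 2 or S116D 3 (difference -0.47 to -0.62, limma adjusted p 0.11 to 0.14). With the set of arrays as a block the probe set was called, at -0.50 and a limma adjusted p of 0.0052, with the limit of that block given above. Within the first set the difference was -0.60 and within the second -0.40.

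The brightest ATP2A2 probe set, 209186_at, moved with the sets of arrays as well as with the lines. It read 12.37, 12.03 and 11.90 in S116A and 12.11, 11.52 and 11.31 in S116D. S116D 1 lay among the S116A arrays, and the other S116D arrays lay below all of them. The difference of -0.45 was not called (95% interval -0.91 to 0.01, limma adjusted p = 0.27). It was -0.09 within the first set and -0.48 within the second, and -0.28 with the set as a block (limma adjusted p = 0.16). Without S116D 1 it was -0.68 and was called (limma adjusted p = 0.026).

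The remaining ATP2A2 probe sets differed little. On 212362_at the lines did not overlap (8.28 to 8.39 against 8.13 to 8.23), with a difference of -0.16 that was not called (limma adjusted p = 0.25). On 239996_x_at, whose suffix marks probes that can match other transcripts, the difference was 0.06. Its 95% interval, from -0.12 to 0.25, did not reach the -0.61 of the called probe set, so the ATP2A2 probe sets gave unlike readings. Probe positions along the transcript were not used here, so which splice form each reads was not tested.

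The pumps of muscle and of blood and endothelial cells were not called. ATP2A1 read 7.78 ± 0.21 on S116A arrays and 7.79 ± 0.14 on S116D arrays (SD, n = 3 each) on 230693_at, and differed by -0.11 on 205444_at (95% interval -0.29 to 0.06). ATP2A3 had 5 probe sets with differences from -0.10 to 0.10. Its brightest, 213036_x_at, read 9.16, 9.15 and 9.22 in S116A and 9.25, 9.35 and 9.24 in S116D, higher on every S116D array but by 0.10 (limma adjusted p = 0.55). On 230453_s_at every S116D array was lower instead, with a difference of -0.10 (limma adjusted p = 0.43), so the ATP2A3 probe sets gave opposite signs.

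Of the IP3 receptors, ITPR1 was higher in S116D on 1 of 5 probe sets. On 203710_at it read 5.65, 5.74 and 5.59 in S116A and 6.32, 6.42 and 6.21 in S116D. The gap between the lines was wider than the range within either, with a difference of 0.65 ± 0.07 (SE), 1.57-fold, and a limma adjusted p of 0.00088. The rise was 0.62 within the first set of arrays and 0.72 within the second, and it stayed called when any 1 array was left out. All readings of this probe set nevertheless lay below the lower quartile of signal. The other 4 ITPR1 probe sets, also below that quartile on average, differed by 0.02 to 0.09 and none was called. The upper 95% bound of the largest of these was 0.30, under the 0.65 of the called one.

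ITPR2, the IP3 receptor with the highest affinity for IP3, had its largest difference on its brightest probe set, 202660_at. It read 7.97, 8.05 and 7.51 in S116A and 8.46, 8.30 and 7.98 in S116D. The lines overlapped, and within each line the array or arrays of the second set were lower. The difference was 0.41 (95% interval 0.04 to 0.78), not called by limma (adjusted p = 0.20). With the set as a block it was 0.54 (95% interval 0.33 to 0.76) and was called, with a limma adjusted p of 0.0044. The S116D readings exceeded the S116A readings by 0.45 within the first set and 0.63 within the second. The other 3 ITPR2 probe sets differed by 0.01 to 0.11, and none was called in either fit.

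ITPR3, the form typical of epithelial cells, differed between the sets of arrays on its 2 bright probe sets, in both lines. On 201189_s_at it read 12.45, 12.54 and 11.79 in S116A and 12.15, 11.51 and 11.46 in S116D. Arrays of the first set exceeded those of the second by 0.71 in S116A and 0.67 in S116D, more than the 0.34 and 0.30 by which S116A exceeded S116D within the first and second set. The difference between the lines was -0.55 without the block (limma adjusted p = 0.23) and -0.32 with it (95% interval -0.45 to -0.19, limma adjusted p = 0.0043). Without S116A 3 it was -0.79 and was called (limma adjusted p = 0.047).

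The second bright ITPR3 probe set, 201188_s_at, was also higher on the first set of arrays in both lines. It read 10.75, 10.62 and 9.95 in S116A and 10.36, 9.65 and 9.84 in S116D. S116D 1 lay above S116A 3, so the lines overlapped, while within each set every S116D array was lower. The difference was -0.49 (limma adjusted p = 0.31) and, with the set as a block, -0.27 (limma adjusted p = 0.053). On the dim 201187_s_at the lines did not overlap, at -0.18 (limma adjusted p = 0.12), and on 239542_at the difference was 0.09 (limma adjusted p = 0.46). The first set minus the second was -0.075 in S116A and -0.106 in S116D on 201187_s_at. On 239542_at it was 0.03 and 0.034. The IP3 receptors thus gave readings of both signs, ITPR1 and ITPR2 positive on all 9 probe sets and ITPR3 negative on 3 of 4. With all arrays and no block, limma called only 1 of these probe sets, for ITPR1. Apart from it and the brightest ITPR2 probe set, those 9 differed by 0.01 to 0.11, with overlapping lines. The 0.01 of ITPR2 211360_s_at became -0.02 with the set as a block. These signs are therefore not read as a pattern. Whether the change differs between receptors was not tested.

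**Figure D3:**
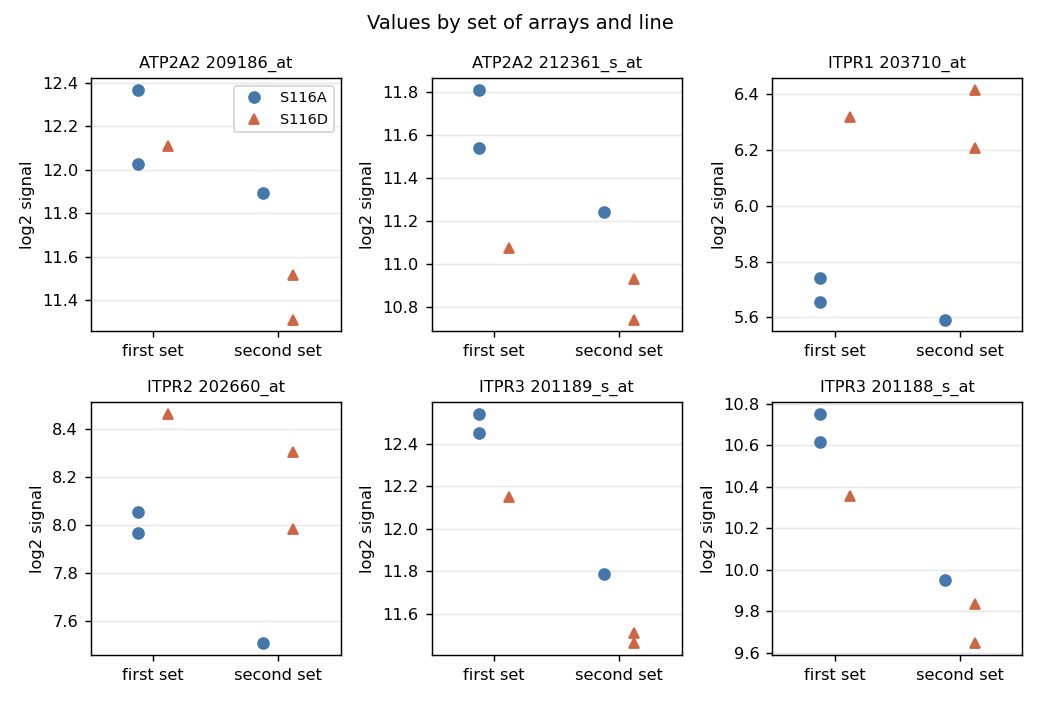
Log2 signal of 6 probe sets of ATP2A2, ITPR1, ITPR2 and ITPR3, split by set of arrays (horizontal axis) and line (circles S116A, triangles S116D). Each panel has its own vertical scale. Outside MRLN, these are the probe sets that differed between the lines by over 0.25 with the set as a block. A difference between the lines was thus part of the choice. In both ITPR3 panels the second set lies below the first in both lines, and within each set S116D lies below S116A, whereas ITPR1 differs by line with little difference between sets.

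The genes next to MRLN on chromosome 10 were compared because the choice of MRLN did not use them. Of the 20 nearest measured protein-coding genes, 10 on each side in RefSeq order, limma called 5 higher in S116D and 0 lower at an adjusted p under 0.05, where 6.79% of all 19775 genes were called higher and 5.39% lower. At an unadjusted p under 0.05, 8 of the 20 were higher, the 5 called ones included, and 1 was lower, namely ADO (-0.25). The lines did not overlap for 9 of the 20, against 27.8% of all genes. The median difference of the 20 was 0.11, against 0.0064 over all genes. Another 4 protein-coding genes of this stretch, CCDC6 and EGR2 among them, had no probe set of their own here.

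The called neighbours were not a continuous run. SLC16A9, a monocarboxylate transporter family member and the nearest measured gene on the lower-coordinate side, read 7.69 ± 0.06 on S116A arrays and 9.87 ± 0.12 on S116D arrays (SD, n = 3 each). Its rise of 2.18 was 4.52-fold, with a limma adjusted p of 3.7e-06. On the other side, ANK3, which encodes ankyrin-G (0.04), and CDK1, the mitotic kinase (0.18), were not called by limma (adjusted p = 0.85 and 0.21). The gene after them, RHOBTB1, rose by 3.51 ± 0.20 (SE), from 7.04 ± 0.28 to 10.55 ± 0.39 (SD, n = 3 each). FAM13C (0.07) and PHYHIPL (-0.01), beyond SLC16A9, were not called.

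Further out, the RNA-binding protein gene BICC1 rose by 0.60, CISD1, an iron-sulfur protein of the outer mitochondrial membrane, by 0.48, and ZNF365 by 0.43 (limma adjusted p = 0.0043, 0.0044 and 0.015). ZNF365 was called on 1 of its 2 probe sets. It lost its call without S116D 3 (limma adjusted p = 0.053) and on the median of its probe sets (0.24, limma adjusted p = 0.063). With the set of arrays as a block 8 of the 20 neighbours were called, as were 4411 of all 19775 genes.

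**Figure D4:**
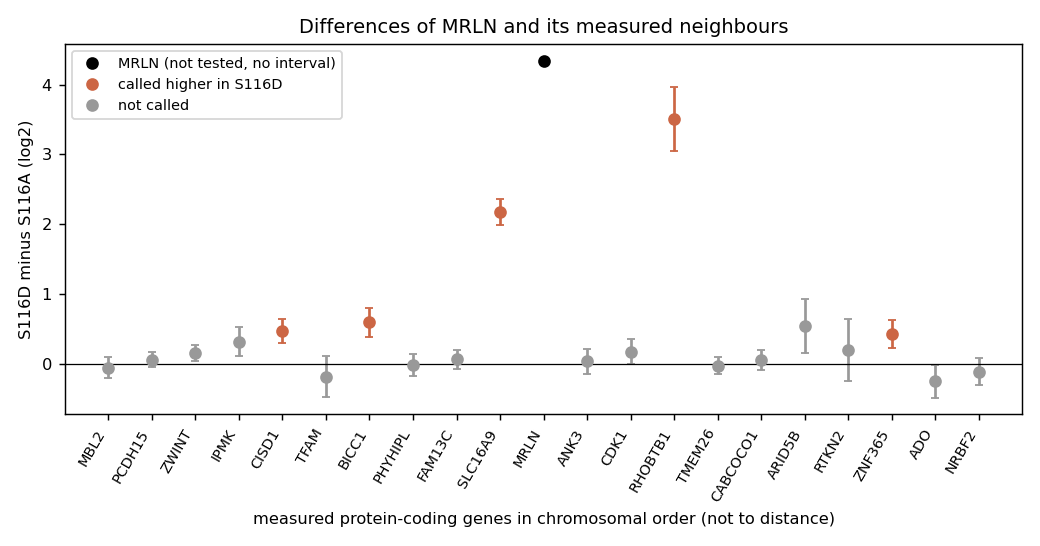
Difference S116D minus S116A (log2) of MRLN, drawn without an interval, and, with limma's 95% interval, of 10 measured protein-coding genes on each side, in chromosomal order; spacing does not show distance. SLC16A9 (2.18), MRLN (4.34) and RHOBTB1 (3.51) stand above the rest, with ANK3 and CDK1 near 0 between MRLN and RHOBTB1.

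The genes whose signal followed MRLN most closely over the 6 arrays were PLPP5, ZNF224, PDZK1IP1, LOC613266 and PAFAH1B3, with Pearson r from 0.9951 to 0.996 among 9886 genes brighter than the median. Such values mostly restate the difference between the lines, and 362 of these genes had r over 0.95. PLPP5 read 9.60, 9.85 and 9.69 in S116A and 10.75, 10.84 and 10.99 in S116D. Like MRLN it was highest among S116A arrays on S116A 2 and highest among S116D arrays on S116D 3.

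After the mean of each line was removed, the genes most like MRLN were LIF, SYCP2, FOSB, OSBPL7 and NFKBIZ, with r of 0.9807 for LIF, 0.935 for SYCP2 and 0.8804 to 0.8929 for the others, over 6 arrays and 1585 genes of large within-line spread. The deviations share their arrays and line means, and r is a description. LIF, a cytokine of the IL6 family, read 9.57, 10.25 and 9.76 in S116A, and FOSB, an AP-1 subunit, 8.51, 9.70 and 8.75. In both, as in MRLN, S116A 2 was the highest of the 3 S116A arrays. Unlike MRLN, LIF was lower in S116D, at -0.615 (limma adjusted p = 0.041), and FOSB differed by -0.31 (limma adjusted p = 0.59). NFKBIZ was called higher (1.76), and SYCP2 (0.46) and OSBPL7 (-0.06) were not called. Among the probe sets of the 8 other calcium genes, ITPR1 203710_at had the highest r with MRLN over the 6 arrays, 0.964, and 0.214 once line means were removed.

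Muscle markers were examined because the micropeptides are known from muscle. Of 23 measured skeletal muscle markers, TNNT1, slow skeletal troponin T, alone was called, higher by 0.81 ± 0.11 (SE; limma adjusted p = 0.0020), against 12.2% of all genes called. The mean over the 23 ranged from 7.21 to 7.27 on S116A arrays and from 7.26 to 7.29 on S116D arrays. The myogenic factors MYOG (-0.09), MYF6 (-0.06), MYOD1 (0.04) and MYF5 (0.03) were not called by limma (adjusted p 0.61 to 0.87). Of 10 heart muscle markers TNNC1, which slow muscle also uses, alone was called, and fell by 1.06. The list's mean, TNNC1 included, was 7.63 to 7.73 on S116A arrays and 7.51 to 7.59 on S116D arrays. The median difference of the 10 was -0.022. Of 7 smooth muscle markers ACTA2 was called lower (-0.34, limma adjusted p = 0.043), though none of its 3 probe sets was called among all probe sets and the median of them differed by 0.08 in the other direction. Its call was lost in 5 of the 6 fits that left out 1 array (limma adjusted p 0.077 to 0.15). Fibroblast markers (0 of 8) and leukocyte markers (0 of 7) gave no call by limma, with 1 and 0 genes at an unadjusted p under 0.05. The part of TNNT1 and TNNC1 in the MRLN difference was not tested.

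The other genes of calcium handling were taken from 9 lists drawn up by function. Of 161 measured genes limma called 22 (13.7%), 10 higher and 12 lower in S116D, against 12.2% of all 19775 genes, and their median difference was 0.003. The share is near that of all genes, of which 6.79% were called higher and 5.39% lower. The counts per list below stand beside these shares, and none is read as a result about a list. The count was 12 without S116A 2 or S116D 3 and 13 without S116A 1 or S116D 2. It was 46 with the set of arrays as a block, where 4411 of all 19775 genes were called. Each gene is represented by its brightest probe set.

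Among other regulators and partners of SERCA, 1 of 15 rose and 1 fell. TMTC2, an ER protein that binds the housekeeping pump, fell by 0.58 and its relative TMTC1 rose by 0.27 (limma adjusted p = 0.034 and 0.035), the latter with 0 of its 4 probe sets called among all probe sets. TMTC1 lost its call on the median of its probe sets (0.05) and in 5 of the 6 fits that left out 1 array, and TMTC2 in 5 of 6. The related micropeptides DWORF (STRIT1), which displaces the inhibitors, and endoregulin (ERLN) were not called. DWORF read 4.71 and 4.73, and endoregulin 7.63 and 7.76, in S116A and S116D. The last 2 were picked with their values in view.

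Of 13 ryanodine receptors and other ER or lysosomal release genes, 3 were called higher and 0 lower, against 6.79% and 5.39% of all genes. No further gene of this list reached an unadjusted p under 0.05. TMEM38A, a potassium channel that supports calcium release, rose by 0.50 and the lysosomal two-pore channel gene TPCN2 by 0.64 (limma adjusted p = 0.0031 and 0.0082). PSEN2, a presenilin, rose by 0.34 (limma adjusted p = 0.024), a call lost in 5 of the 6 fits without 1 array. The ryanodine receptor genes RYR1, RYR2 and RYR3, the release channels of muscle and neurons, read 5.80 to 6.17 in both lines, below the lower quartile, and were not called. They too were chosen afterwards.

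Of 19 modulators of IP3 receptors, 2 rose and 1 fell. RNF170, a ubiquitin ligase that removes activated IP3 receptors, rose from 9.71 ± 0.04 to 10.32 ± 0.02 (SD, n = 3 each; limma adjusted p = 0.0012). It was called on 1 of 3 probe sets and lost its call on their median (0.14). HOMER1, a scaffold that binds IP3 receptors, rose by 0.64, and lost its call without S116A 2 (limma adjusted p = 0.088). ITPRIPL2, a relative of the IP3 receptor-interacting protein, fell by 0.57 (limma adjusted p = 0.0016).

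Of 25 genes that make or remove IP3, 1 rose and 1 fell. The phospholipase C gene PLCE1 fell from 9.98 ± 0.32 to 8.75 ± 0.28 (SD, n = 3 each; limma adjusted p = 0.0034) on its brightest probe set. It was called on 2 of 5 probe sets, and the median of the 5 differed by 0.13 in the other direction. ITPKB, an IP3 kinase, rose by 0.32 (limma adjusted p = 0.028), a call lost on the median of its probe sets (0.09) and in 4 of the 6 fits without 1 array.

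Of 18 genes listed under store-operated calcium entry, the refilling of ER calcium from outside, TRPC6 fell by 0.35 (limma adjusted p = 0.0094). It read 7.69 in S116A and 7.35 in S116D, below the median signal of all probe sets (7.888). Its part in store refilling was not tested. The other 17 genes were not called. The ER sensor STIM1 (0.03, limma adjusted p = 0.89) and its channel ORAI1 (-0.07, 0.84), chosen after their values were seen, were among these. Of 16 pumps and exchangers of the plasma membrane and Golgi, ATP2B4, a plasma membrane calcium pump, was the called gene. It read 11.92 ± 0.23 on S116A arrays and 10.80 ± 0.19 on S116D arrays (SD, n = 3 each), a fall of 1.12 ± 0.14 (SE) with a limma adjusted p of 0.0015, on 2 of 3 probe sets. Its relative ATP2B1 differed by 0.09 (limma adjusted p = 0.58).

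Of 18 calcium-binding chaperones of the ER, RCN3, a reticulocalbin, rose by 0.71 and CALU, calumenin, fell by 0.42 (limma adjusted p = 0.0012 and 0.017). CALU lost its call on the median of its 5 probe sets (-0.11) and in 4 of the 6 fits without 1 array. Calreticulin (CALR), the main calcium buffer of the ER, read 12.27 ± 0.13 and 12.26 ± 0.08 (SD, n = 3 each) and was chosen afterwards.

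Of 14 genes of mitochondrial calcium uptake, VDAC1, an outer membrane channel, rose by 0.38, and MCU, the uniporter pore (-0.35), and LETM1, an inner membrane exchanger (-0.42), fell (limma adjusted p 0.024 to 0.030). MCU lost its call in 4 of the 6 fits without 1 array, and VDAC1 and LETM1 in 5 each.

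Of 23 calcium effectors, 1 rose and 4 fell. CAMK1, a calmodulin kinase, rose from 7.36 ± 0.29 to 8.71 ± 0.11 (SD, n = 3 each; limma adjusted p = 0.00056), on 1 of 2 probe sets. The calcineurin gene PPP3CA fell by 0.61 on its brightest probe set and was called lower on all 3 (limma adjusted p = 0.0078). PRKCA, a calcium-dependent protein kinase C, fell by 0.94 and the calcineurin regulator RCAN3 by 0.34, each on 1 probe set of several. On the median of their probe sets PRKCA (0.07) and RCAN3 (0.01) were no longer called and had the opposite sign. RCAN3 also lost its call in 3 of the 6 fits without 1 array. CAPN2, a calpain, fell by 0.59 (limma adjusted p = 0.018) and was chosen after its values were seen.

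**Figure D5:**
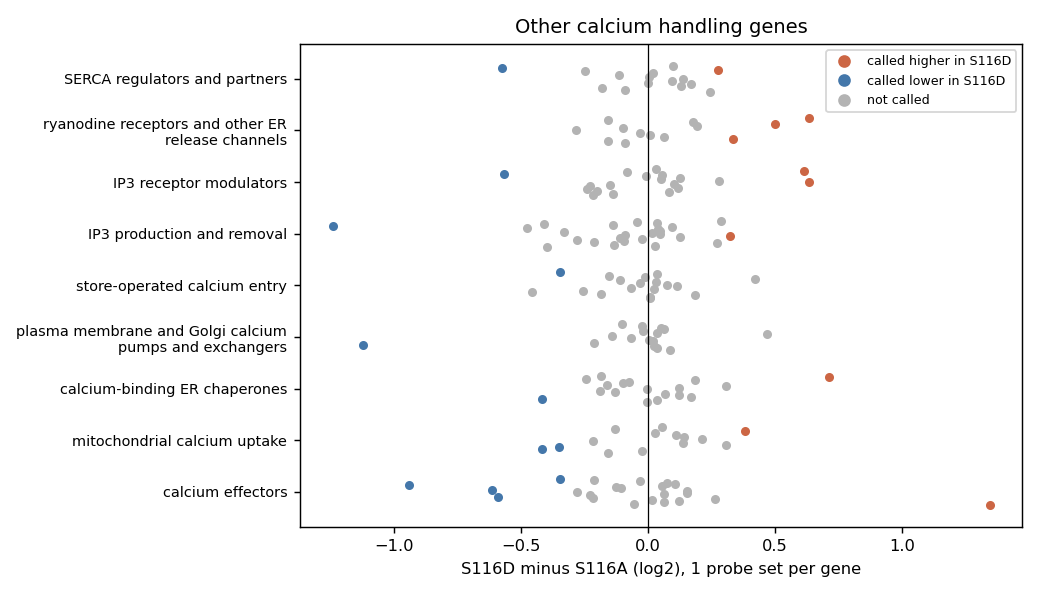
Difference S116D minus S116A (log2, 1 probe set per gene) for the 161 measured calcium handling genes outside the set of 9, by list; colours mark genes called by limma. Most points lie near 0 in every list, with CAMK1 (1.35) furthest to the right and PLCE1 (-1.24) and ATP2B4 (-1.12) furthest to the left.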

How the data were processed

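RNA of 6 samples was labelled and hybridised, per the labels' protocols. The authors' deposited table holds 1 log2 value per probe set and array, all between 4.336 and 15.33, per the values themselves. MAS5 and RMA appear in the submitters' processing notes without a role, and their settings are not stated in what was used here. No pseudocount was needed. Control probe sets (62 of 54675) were left out. GEO's platform annotation gave 1 gene for 41091 probe sets, several for 1801 and none for 11721; symbols were updated through RefSeq (GRCh38.p14). Members, lists and tests were chosen with earlier results of these data known.

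Lines, taken from sample titles, were fitted in R 4.3.3 with limma 3.58.1 (lmFit and eBayes with intensity trend, no covariate, Benjamini-Hochberg, threshold 0.05), once over 54613 probe sets, used for the 9 members, and once over 19775 genes by brightest probe set, used for neighbours, lists and markers. An exact permutation test of 3 against 3 arrays cannot go below 0.1 and was not used. The fit was first tested on simulated data. Precision is limited by the number of arrays.

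Named genes were the 9 members, up to 4 called genes per list by adjusted p, the called and 3 nearest neighbours on each side of MRLN, and the 5 genes most like MRLN. Genes named outside this rule, such as ATP2B1, MEF2C and MSLN, were not fixed by it, and only some are marked as chosen after their values were seen. Same-numbered arrays did not all deviate together (r of deviations 0.45, -0.0401 and 0.442), so replicate numbers were not taken as pairs. Alternatives were no trend, array weights, median centring, quantile normalization, dropping probe sets below the median signal, a replicate block, a median over each gene's probe sets, leaving out each array, and the set of arrays as a block.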

Additional observations from a re-analysis of the deposited data

How the results depend on the processing

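The MRLN difference was 4.36 after quantile normalization, 4.33 after median centring and 4.37 with the set of arrays as a block. Of 28 other member probe sets, 2 were called; the count was 1 among probe sets above the median signal, 5 with the replicate block, 4 with the set block, and 1 to 3 when 1 array was left out. With the replicate block, in which numbers are shared but pairs are not shown, ATP2A2 209186_at, ITPR2 202660_at and ITPR3 201189_s_at were also called (limma adjusted p 0.0077 to 0.032); array weights added that ITPR3 probe set. Calls over all probe sets numbered 4672, with 7340 under the replicate block, 8099 under the set block and 2608 to 4674 without 1 array. Calls over all genes numbered 2407, with 3681 under array weights, 3892 under the replicate block, 4411 under the set block and 1447 to 2593 without 1 array. Calcium handling calls numbered 39 with array weights, 42 with the replicate block, 46 with the set block and 12 to 25 without 1 array. Muscle, fibroblast and leukocyte marker calls numbered 3 without a block, 5 with either block and 2 to 4 without 1 array. MRLN neighbour calls were 8 with array weights and with either block, and 4 to 6 without 1 array. Taking the median over each gene's probe sets, PRKCA (0.07), RCAN3 (0.01), PLCE1 (0.13) and ACTA2 (0.08) turned sign. The cause was not tested in any of these cases. Signal over background could not be judged, which limits MRLN in S116A, PLN, the ryanodine receptors and ITPR1 most.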
